A study of Mus musculus with 4 samples.

Results

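The MAP kinase phosphatases encoded by the Dusp genes were described in RNA sequencing libraries from 4 mice. The members were chosen by gene symbol as Dusp1, Dusp2, Dusp4, Dusp5, Dusp6, Dusp7, Dusp8, Dusp9, Dusp10 and Dusp16, which gave 10 of the 24421 genes listed. All 10 were found, and 9 of them had a mean of at least 1 FPKM over the 4 libraries and entered the test, as did 12011 genes in all. Dusp9 did not reach that mean. FPKM scales fragments by transcript length and by library size, so levels can be compared between genes. The groups were 2 Usp25-/- mice (animals 826 and 850) and 2 Usp25+/+ mice (animals 139 and 140), each library from a separate animal. Usp25 encodes an enzyme that removes ubiquitin from proteins. Per the labels, all 4 were C57BL/6 females aged 8 weeks that had received 2.5% dextran sulfate sodium (DSS), which injures the colon lining, in their drinking water for 5 days and plain water for 2 days. No untreated group was analysed here. The question was how these genes differ between the genotypes after that treatment.

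MAP kinases are switched on when a kinase phosphorylates a threonine and a tyrosine in their activation loop. The MAP kinase phosphatases remove both phosphates and so switch the kinase off. The classes are ERK, activated mainly by growth factors, and JNK and p38, activated mainly by stress and cytokines. Many of these phosphatases are themselves induced by the signal they end, which makes their mRNA part of a negative feedback loop. In innate immune cells, Dusp1 is known for limiting cytokine production after Toll-like receptor signals.

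The libraries followed the genotype labels but not the labelled tissue or sex. Usp25 stood at 2.65 and 1.71 FPKM in Usp25-/- 826 and 850, against 38.5 and 16.6 FPKM in Usp25+/+ 139 and 140. Of 10 listed markers of absorptive colon cells, 4, 6, 3 and 6 were at 0 in 826, 850, 139 and 140, and the list's sum of 205 to 412 FPKM came mainly from Car4, while Aqp8 and Cdx1 were at 0 in all 4. Lgals4 stood at 70.6 and 28.8 FPKM in Usp25-/- 826 and 850, against 7.04 and 9.83 FPKM in Usp25+/+ 139 and 140. Krt20 had 52.4 and 7.35 FPKM in 826 and 850, against 4.31 and 3.11 FPKM in 139 and 140. The smooth muscle marker Myh11 did not exceed 0.814 FPKM in any library, and Acta2, the highest of the 5 listed, stood at 5.98 to 8.48 FPKM, while 7 markers of lung alveolar type 2 cells summed to 1538 to 4988 FPKM. Xist did not exceed 0.11 FPKM, and the Y-linked Ddx3y reached at least 12.7 FPKM in each library. Genotype labels are used here as they stand, and no value is read as a measurement of the colon. Animal 139 stood apart: all 11 neutrophil markers found (12 listed) were highest there, with sums of 2168 and 1277 FPKM in Usp25-/- 826 and 850, and of 42254 and 803 FPKM in Usp25+/+ 139 and 140. Camp was the neutrophil marker listed at 0, in animal 140. Animal 139 also had 20556 genes above 0, against 17242, 15805 and 15603 in 826, 850 and 140. Its levels of the macrophage marker Lyz2 (12613 FPKM) and of the alveolar type 2 marker Sftpc (339 FPKM) were the lowest of the 4 libraries. In such bulk tissue, fewer cells of a type and less RNA per cell cannot be told apart.

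All members share a catalytic loop in which a histidine and a cysteine are followed, after 5 residues, by an arginine. The cysteine attacks the phosphate and the arginine holds it. The coding sequences of this loop are shown because they define the family and show how far apart its members are. They were read from the GENCODE vM1 transcripts on NCBIM37 (mm9), and the capitals mark the codons of the histidine, the cysteine and the arginine.
Dusp1: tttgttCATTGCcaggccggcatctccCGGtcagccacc
Dusp2: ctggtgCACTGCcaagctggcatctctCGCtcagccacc
Dusp4: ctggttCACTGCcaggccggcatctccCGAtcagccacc
Dusp5: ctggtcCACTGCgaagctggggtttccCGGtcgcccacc
Dusp6: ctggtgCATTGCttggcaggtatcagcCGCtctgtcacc
Dusp7: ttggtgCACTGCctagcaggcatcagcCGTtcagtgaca
Dusp9: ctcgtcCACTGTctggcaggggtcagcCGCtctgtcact
Dusp8: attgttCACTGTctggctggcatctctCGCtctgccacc
Dusp10: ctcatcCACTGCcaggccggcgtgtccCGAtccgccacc
Dusp16: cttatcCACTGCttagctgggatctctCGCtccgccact
Each stretch is 39 bases long, and 17 of its positions were identical in all 10 genes. Dusp1 and Dusp4 were the closest pair over this stretch, with 35 of 39 bases identical (89.7%), and the lowest identity of the 45 pairs was 59.0%. Along the whole transcripts shown here, 0 of the 45 pairs had a run of 31 bases in common. No member is therefore a near-identical copy of another at that length. Dusp10 overlaps 1700056E22Rik on the other strand, listed at 0.201 to 1.68 FPKM, and the reads carry no strand. In GENCODE vM1 the symbol Dusp8 stands for a pair of overlapping genes on the same strand, so its value is uncertain.

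The 8 members with an entry among RefSeq promoters (GRCm38.p6, 250 bases before to 50 after the start) had 57.3% to 78.7% G and C, against a median of 52.7% over 32851 promoters. They held 19 to 41 CG pairs, against a median of 7. Dusp4 and Dusp9 had no entry. Both strands were searched for 9 motifs. Among them were the cyclic AMP response element, written TGACGTCA, and its core, written TGACG. Others were the AP-1 motif, written TGANTCA, the TATA box, written TATAAA, the CArG box of serum response factor and the NF-kB motif. The last 3 were the GC box, written GGGCGG, the CAAT box, written CCAAT, and the ETS motif, written CCGGAAGT. The full TGACGTCA was in the promoters of Dusp1 and Dusp8 and in 1.79% of all promoters. The CArG box was in that of Dusp5 and in 1.63% of all. The core TGACG, which lies within TGACGTCA, was in 5 of the 8 (Dusp1, Dusp2, Dusp5, Dusp8 and Dusp16) and in 20.8% of all promoters. The AP-1, TATA and NF-kB motifs were in 0 of these 8 windows, and in 7.81%, 13.6% and 4.51% of all promoters in that order. The GC box was in 7 of the 8, all except Dusp6, and in 35.7% of all promoters. The shares over all promoters are not matched for the members' higher content of G and C, and its part in these counts was not tested. The CAAT box was in 5 of the 8 (Dusp6, Dusp7, Dusp8, Dusp10 and Dusp16) and in 37.4% of all, and the ETS motif in 0 of the 8 and in 3.89% of all. The 3 promoters with TGACGTCA or a CArG box are printed 5′ to 3′, with those matches and any match to the core TGACG in capitals. They are chr17:26508423-26508722 for Dusp1 and chr7:142095235-142095534 for Dusp8, both minus strand, and chr19:53528895-53529194 for Dusp5, plus strand.
Dusp1: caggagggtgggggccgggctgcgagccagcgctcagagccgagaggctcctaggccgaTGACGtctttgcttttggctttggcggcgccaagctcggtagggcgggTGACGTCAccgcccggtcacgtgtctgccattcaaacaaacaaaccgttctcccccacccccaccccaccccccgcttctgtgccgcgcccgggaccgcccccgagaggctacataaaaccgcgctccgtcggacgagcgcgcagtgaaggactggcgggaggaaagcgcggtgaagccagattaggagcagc
Dusp5: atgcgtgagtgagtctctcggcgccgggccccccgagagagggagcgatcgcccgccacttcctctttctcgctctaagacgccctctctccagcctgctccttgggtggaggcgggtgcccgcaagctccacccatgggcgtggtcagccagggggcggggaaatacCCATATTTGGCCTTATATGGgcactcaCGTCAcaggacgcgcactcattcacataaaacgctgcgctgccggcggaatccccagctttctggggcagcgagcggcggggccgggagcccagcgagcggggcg
Dusp8: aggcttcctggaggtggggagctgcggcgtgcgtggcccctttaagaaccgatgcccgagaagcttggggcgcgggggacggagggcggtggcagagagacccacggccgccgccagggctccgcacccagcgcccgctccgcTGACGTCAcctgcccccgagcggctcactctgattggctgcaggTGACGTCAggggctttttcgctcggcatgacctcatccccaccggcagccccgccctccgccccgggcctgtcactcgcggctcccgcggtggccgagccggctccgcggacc
Counting the start base as 0, the Dusp1 element covers bases -143 to -136. The Dusp8 elements cover -107 to -100 and -63 to -56. The Dusp5 CArG boxes cover -82 to -73 and -72 to -63, next to each other. The same 8 letters thus occur in the promoter of the most abundant member and, as a pair, in that of a member near 2 FPKM.

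No member passed the test between the genotypes, and the members differed in direction. Limma on log2(FPKM + 1) called 0 of 9 tested members and 0 of 12011 genes (0%) at an adjusted p of 0.05. At an unadjusted p of 0.05 it called 0 of 9 members and 375 genes (3.12%). The members' adjusted p lay between 0.960 and 0.972. Usp25 itself did not pass, with a log2 fold change of -3.07 (SE 0.47). Its limma p was 0.00107 unadjusted and 0.960 adjusted. A failure to pass this test is therefore not evidence that a gene is unchanged. Dusp1, Dusp2, Dusp5, Dusp8 and Dusp16 had lower fitted means in Usp25-/-, and Dusp4, Dusp6, Dusp7 and Dusp10 had higher ones. Their median log2 fold change was -0.14, against 0.03 over all tested genes. The libraries of the genotypes did not overlap in 4 of 9 members, 1 lower and 3 higher in Usp25-/-. That was the case in 33.8% of all tested genes, 14.7% lower and 19.0% higher. With 2 libraries a genotype, an exact permutation test of one gene cannot give a two-sided p below 0.333.

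**Figure D1:**
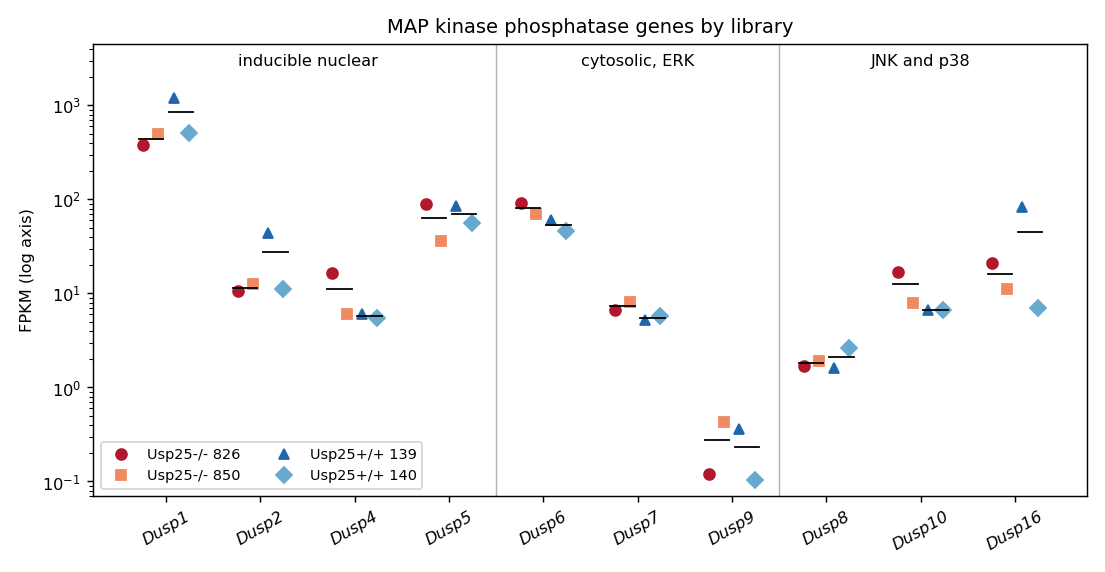
FPKM of the 10 MAP kinase phosphatase genes on a log axis, by library, with Usp25-/- left of Usp25+/+ and a black line at each genotype's mean (n = 2). Dusp1 lies above every other member in all 4 libraries and Dusp9 lies below every other member, while Dusp2 and Dusp16 are highest in Usp25+/+ 139.

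Levels ran from 0.105 FPKM for Dusp9 to 1207 FPKM for Dusp1. Averaged over the 4 libraries, the order was Dusp1 (647 FPKM), Dusp6 (66.6), Dusp5 (66.5), Dusp16 (30.4), Dusp2 (19.7), Dusp10 (9.57), Dusp4 (8.48), Dusp7 (6.44), Dusp8 (1.96) and Dusp9 (0.255). Dusp1 came first in each library, and Dusp8 and then Dusp9 came last. The places between them were not fixed, and among the neighbours from Dusp6 to Dusp7 in that order, Dusp5 and Dusp16 and likewise Dusp10 and Dusp4 kept their order in all 4 libraries and the rest did not. Dusp6 stood above Dusp5 in both Usp25-/- libraries and below it in both Usp25+/+ libraries. Dusp1 made up 59.6% and 76.5% of the summed FPKM of the 10 genes in 826 and 850, and 80.6% and 78.3% in 139 and 140. The sums were 630 and 654 FPKM in Usp25-/-, against 1499 and 647 FPKM in Usp25+/+. With Dusp1 included, the high sum belongs to animal 139 alone, and the other 3 libraries were close to each other. Leaving Dusp1 out, the sums were 254 and 154 FPKM in 826 and 850, against 291 and 140 FPKM in 139 and 140. In these smaller sums 826 lay near 139.

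The inducible nuclear phosphatases are made in response to the signal and act in the nucleus. Dusp1, which acts on p38, JNK and ERK, lies at chr17:26642535-26645464 on the minus strand (gene positions here are on mm9) and has 4 exons. Its level was 375 and 500 FPKM in Usp25-/- 826 and 850, against 1207 and 506 FPKM in Usp25+/+ 139 and 140. These levels placed it at rank 217, 138, 43 and 150 of all genes in those libraries. The genotypes did not overlap, but 850 lay just below 140. The means were 438 ± 88.1 FPKM in Usp25-/- and 857 ± 496 FPKM in Usp25+/+ (SD, n = 2 each). The log2 fold change was -0.85 (SE 0.53, 95% interval -2.21 to 0.51; limma adjusted p = 0.960). Without animal 139 it was -0.23, and without animal 140 it was -1.48. When libraries were scaled to a common upper quartile or quantile normalized, the genotypes overlapped.

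Dusp2, known from activated lymphocytes and myeloid cells, lies at chr2:127161895-127164112 on the plus strand. It had 10.6 and 12.5 FPKM in 826 and 850, against 44.4 and 11.2 FPKM in 139 and 140. A single library, 139, stood above the rest, and 140 lay between the Usp25-/- libraries. For Dusp2 the log2 fold change was -0.91 (SE 0.65, 95% interval -2.57 to 0.75), and without animal 139 it was 0.043. The neutrophil markers were highest in the same library, as given above, and their part in the levels of Dusp1, Dusp2 and Dusp16 was not tested.

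Dusp4, which acts on ERK and JNK, lies at chr8:35870351-35882948 on the plus strand. Its level was 16.4 and 6.00 FPKM in Usp25-/- 826 and 850, against 6.04 and 5.50 FPKM in Usp25+/+ 139 and 140. Here 826 was the high library and the other 3 were alike. The log2 fold change of 0.70 (SE 0.49, 95% interval -0.53 to 1.94) became 0.05 without animal 826 and 1.36 without animal 850.

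Dusp5, which dephosphorylates ERK and holds it in the nucleus, lies at chr19:53603599-53616921 on the plus strand. Its level was 89.6 and 36.0 FPKM in Usp25-/- 826 and 850, against 84.9 and 55.6 FPKM in Usp25+/+ 139 and 140. The Usp25-/- libraries were the highest and the lowest of the 4, so the spread within that genotype enclosed the other. Its log2 fold change was -0.27 (SE 0.53, 95% interval -1.61 to 1.07).

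The cytosolic phosphatases prefer ERK. Dusp6, itself a known ERK-induced feedback gene, lies at chr10:98725865-98730122 on the plus strand. It stood at 91.0 and 69.7 FPKM in Usp25-/- 826 and 850, against 59.9 and 45.9 FPKM in Usp25+/+ 139 and 140. Both Usp25-/- libraries were above both Usp25+/+ libraries, with means of 80.3 ± 15.1 and 52.9 ± 9.87 FPKM (SD, n = 2 each). The log2 fold change was 0.59 (SE 0.33, 95% interval -0.25 to 1.43; limma adjusted p = 0.960), with the smallest unadjusted p of the members at 0.130. It ranged from 0.40 to 0.78 when each library was left out.

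Dusp7, a relative of Dusp6 at chr9:106270963-106278055 on the plus strand, was listed at 6.74 and 8.09 FPKM in 826 and 850, against 5.18 and 5.77 FPKM in 139 and 140. It did not overlap between the genotypes and was the steadier of the pair, with a range of 0.56 log2 units over the libraries. Its log2 fold change was 0.38 (SE 0.28, 95% interval -0.33 to 1.08). Dusp9, the X-linked member at chrX:70884758-70888853 known from placenta, was listed at 0.120 and 0.433 FPKM in 826 and 850, against 0.361 and 0.105 FPKM in 139 and 140. It was low in every library and was not tested. The summed level of these 3 genes was 97.8 and 78.2 FPKM in Usp25-/-, against 65.4 and 51.8 FPKM in Usp25+/+.

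The third subgroup prefers JNK and p38. Dusp8, at chr7:149265395-149281748 on the minus strand, had 1.68 and 1.92 FPKM in Usp25-/- 826 and 850, against 1.62 and 2.64 FPKM in Usp25+/+ 139 and 140. The genotypes overlapped, with both Usp25-/- libraries between the Usp25+/+ ones, and the log2 fold change was -0.14 (SE 0.34, 95% interval -1.02 to 0.73). Dusp10, which restrains JNK in immune cells, lies at chr1:185837181-185899515 on the plus strand. Its level was 17.0 and 7.92 FPKM in Usp25-/- 826 and 850, against 6.73 and 6.60 FPKM in Usp25+/+ 139 and 140. The genotypes did not overlap, and most of the difference lay in 826. The log2 fold change of 0.73 (SE 0.41, 95% interval -0.32 to 1.77) became 0.22 without animal 826 and 1.23 without animal 850.

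Dusp16, a JNK phosphatase that shuttles between nucleus and cytoplasm, lies at chr6:134665488-134742643 on the minus strand and has 10 exons in its longest coding transcript. Its level was 21.2 and 11.2 FPKM in Usp25-/- 826 and 850, against 82.1 and 7.04 FPKM in Usp25+/+ 139 and 140. The Usp25+/+ libraries were the highest and the lowest of the 4, 11.7 times apart, a wider spread than in any other member. The means were 16.2 ± 7.06 FPKM in Usp25-/- and 44.6 ± 53.1 FPKM in Usp25+/+ (SD, n = 2 each). This gave a log2 fold change of -0.65 (SE 1.11, 95% interval -3.49 to 2.18). Without animal 139 it was 1.03, and without animal 140 it was -2.34.

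**Figure D2:**
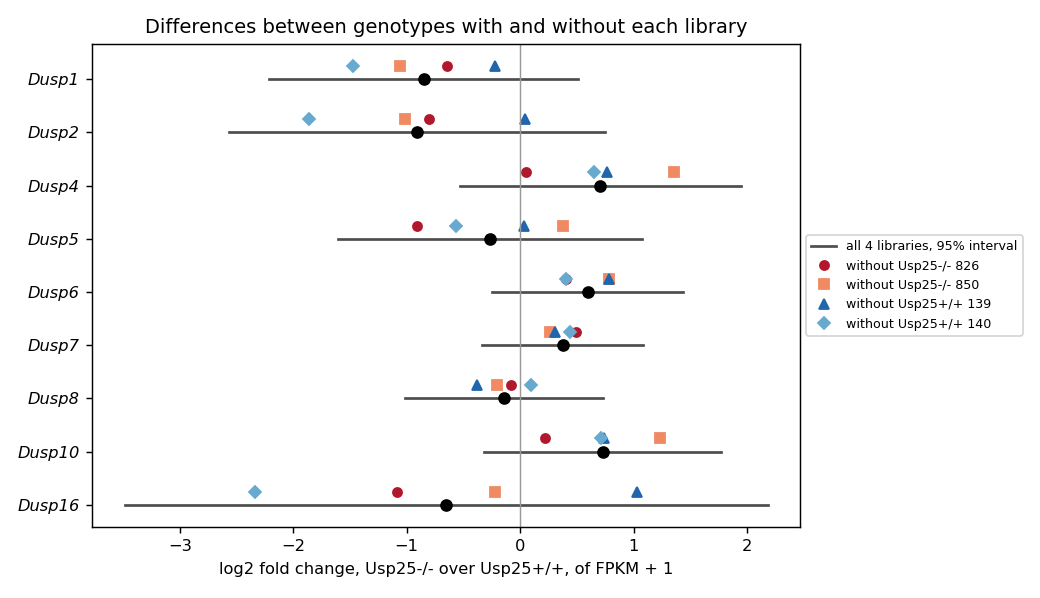
Log2 fold changes (Usp25-/- over Usp25+/+, on FPKM + 1) of the 9 tested members, with black points and 95% limma intervals for all 4 libraries and coloured symbols for fits without each library. Every interval includes 0, and Dusp16 runs from -2.34 without animal 140 to 1.03 without animal 139.

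The spread over the libraries differed among the members. Over the 4 libraries the median range of the tested members was 1.29 log2 units, and that of all tested genes was 0.79. Dusp16 had a range of 3.37 log2 units, above 98.3% of tested genes, and Dusp2 one of 1.97, above 91.5%. Dusp7 and Dusp8 were at the other end, above 28.9% and 21.0% of tested genes. Among the 36 pairs of tested members, Dusp4 and Dusp10 had the most similar profiles, at a distance of 0.22 log2 units between profiles centred on their own means. Dusp1 and Dusp2 came next at 0.48. Dusp4 and Dusp10 were highest in 826, Dusp1 and Dusp2 in 139. Across all tested genes, the profiles closest to Dusp1 were those of Dennd3, Agtrap and Vasp, each within 0.08 log2 units. Those closest to Dusp2 were Klhl24, Tlr4 and Zcchc6 (0.08 to 0.16), and those closest to Dusp16 were Il18rap, Krt6a and Il1bos (0.25 to 0.28). With 4 libraries such likeness describes which library is high.

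**Figure D3:**
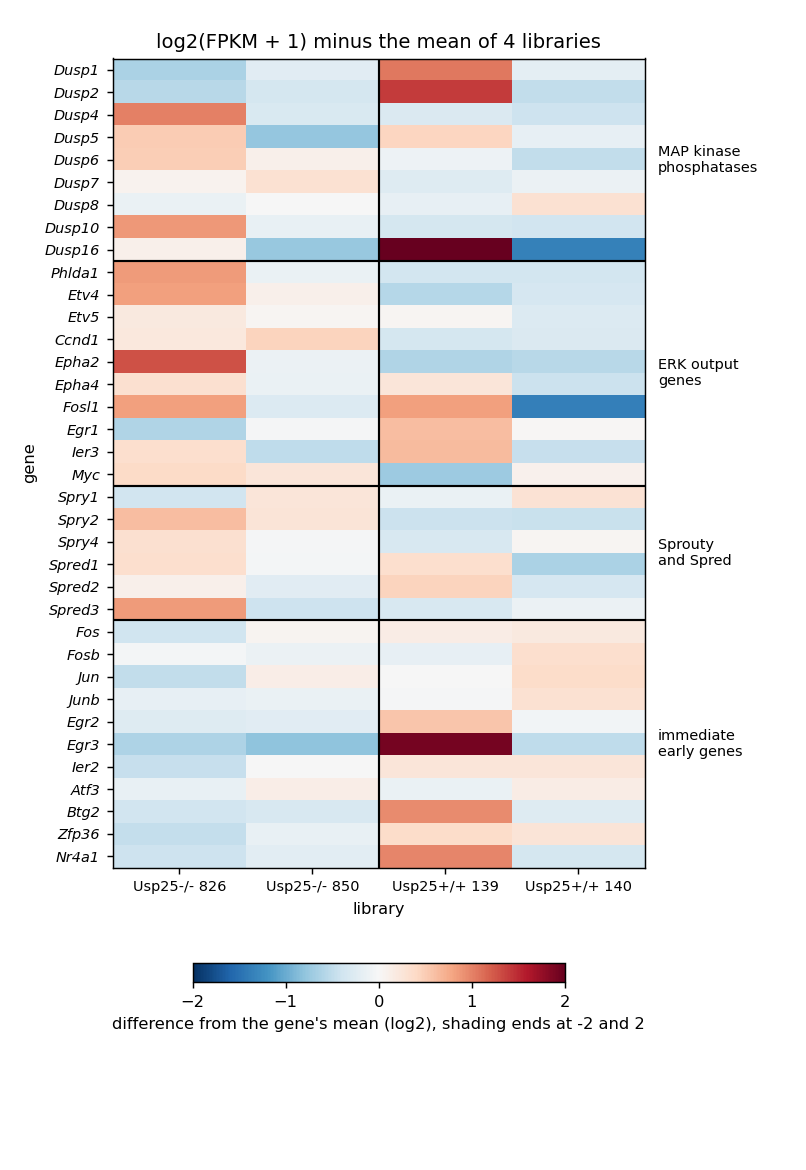
Log2(FPKM + 1) of each gene minus its mean over 4 libraries, for tested MAP kinase phosphatases and 3 groups of genes downstream of or around ERK, with Usp25-/- left. Dusp1, Dusp2 and Dusp16 are reddest in Usp25+/+ 139, Dusp4 and Dusp10 in Usp25-/- 826; Egr1, which is in the ERK output and the immediate early lists, is drawn in the ERK output group.

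In a list of 10 ERK output genes outside the family, most log2 fold changes were positive, though 0 of 10 passed the test. The list does not hold every gene that ERK can induce. Others are in the immediate early list below, where 12 of 12 were negative, so the direction depends on the list. Of the 10 ERK output genes, 8 had a positive log2 fold change. Among them 6 did not overlap and were higher (19.0% of all tested genes), and 1 did not overlap and was lower (14.7%). Their median was 0.59. Epha2, a receptor tyrosine kinase, had the largest difference, at 78.2 and 29.4 FPKM in Usp25-/- 826 and 850, against 20.7 and 21.3 FPKM in Usp25+/+ 139 and 140 (log2 fold change 1.16, SE 0.51). Etv4, an ETS transcription factor, stood at 10.0 and 5.72 FPKM in 826 and 850, against 3.23 and 3.96 FPKM in 139 and 140. Animal 826 was the highest library for 7 of the 10. Without animal 826 the median was 0.20, and without animal 140 it was 0.38. Egr1 went the other way, at 88.5 and 133 FPKM in 826 and 850, against 207 and 137 FPKM in 139 and 140.

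The Sprouty and Spred proteins also damp growth factor signalling to ERK. Of 7 listed genes 6 were tested and 0 passed, with 4 higher and 2 lower. Spry2 was the one without overlap, at 16.1 and 12.4 FPKM in Usp25-/- 826 and 850, against 7.34 and 7.19 FPKM in Usp25+/+ 139 and 140. Its log2 fold change was 0.87 (SE 0.29; limma adjusted p = 0.960). Of all tested genes, 19.0% were higher without overlap. Spry1 overlapped, at -0.15 (SE 0.35).

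The immediate early genes, which are induced with Dusp1, had negative log2 fold changes in 12 of 12, with a median of -0.49, and 0 passed the test. Negative values made up 46.5% of all tested genes. In 8 of the 12 the genotypes did not overlap and Usp25-/- was lower, as in 14.7% of all tested genes. Egr3, a transcription factor, had the largest difference, at 2.04 and 1.67 FPKM in Usp25-/- 826 and 850, against 16.6 and 2.28 FPKM in Usp25+/+ 139 and 140 (log2 fold change -1.42, SE 0.80). Animal 139 was its one high library, and the other 3 were close. Without animal 139, the median was -0.35 with 11 of 12 lower, and without animal 826 it was -0.30.

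The kinases on which these phosphatases act ranged in mean level from 0.175 FPKM for Mapk10, which was not tested, to 144 FPKM for Mapk3. Of 10 MAP kinase genes 9 were tested and 0 passed, with 6 higher and 3 lower. Among all tested genes 46.5% were lower. The median of the 9 was 0.24, and it was 0.07 to 0.34 without single libraries. Mapk3, which encodes an ERK protein, had 159 and 158 FPKM in 826 and 850, against 65.5 and 193 FPKM in 139 and 140, lowest in 139 where Dusp1 was highest. Mapk14, the main p38 gene, overlapped, at 22.5 and 29.9 FPKM in 826 and 850 and 24.2 and 33.5 FPKM in 139 and 140. By the rule for named genes, Mapk13 had the largest positive difference (0.67, SE 0.65) and Mapk7 the largest negative one (-0.44, SE 0.27). The 7 MAP kinase kinases had a median of 0.01, with 4 higher and 3 lower, from Map2k7 (-0.63, SE 0.48) to Map2k5 (0.34, SE 0.49). Their median was -0.21 without animal 140 and 0.19 without animal 850.

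Of the kinases downstream of MAP kinases, 8 of 10 were lower and 0 passed, with a median of -0.23. Without overlap, 3 were lower and 2 higher. Among all tested genes 46.5% were lower, 14.7% were lower without overlap and 19.0% were higher without overlap. Rps6ka2, a ribosomal S6 kinase, had 2.01 and 2.39 FPKM in Usp25-/- 826 and 850, against 17.2 and 4.29 FPKM in Usp25+/+ 139 and 140 (log2 fold change -1.62, SE 0.62). Mapkapk2, the p38 substrate kinase, stood at 80.1 and 68.9 FPKM in 826 and 850, against 262 and 62.8 FPKM in 139 and 140. Like Dusp1 and Dusp2 it was highest in 139. Mapkapk3 had the largest positive difference, at 0.28 (SE 0.28). Without that library 5 of the 10 were lower and the median was -0.01.

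Other phosphatases of the wider family are known to include enzymes with little or no action on MAP kinases. Of 14 atypical DUSP genes, which lack the kinase-binding domain, 10 were tested and 0 passed. In Usp25-/- 8 were higher, 4 of them without overlap, and 2 were lower, with a median of 0.34. Of all tested genes, 19.0% were higher without overlap and 46.5% were lower. Dusp22 had the largest difference, at 9.15 and 9.58 FPKM in 826 and 850, against 2.76 and 9.32 FPKM in 139 and 140. Its low library was 139, and the other 3 were close. Dusp13 had the largest negative difference, at -0.09 (SE 0.57). Without animal 139 the median of the 10 was 0.10, and without animal 140 it was 0.64. The 4 tested genes of other MAP kinase phosphatases (6 listed) had 2 higher and 2 lower, from Ptpn7 at -0.40 (SE 0.37) to Ppm1d at 0.23 (SE 0.27).

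**Figure D4:**
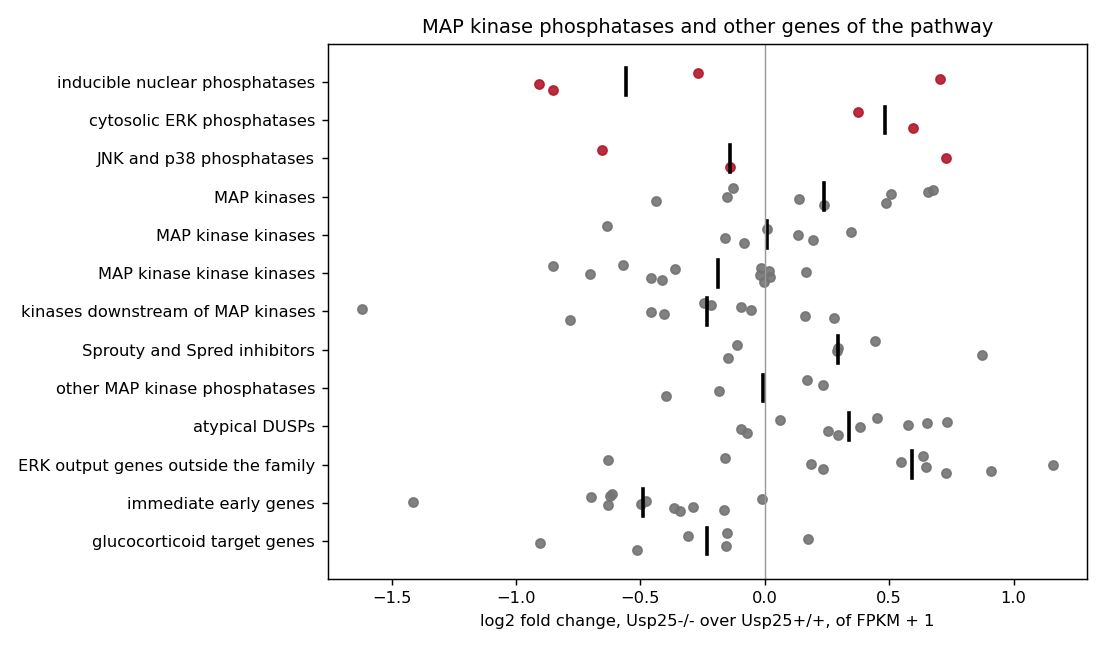
Log2 fold changes (Usp25-/- over Usp25+/+, on FPKM + 1) of tested genes in each list, with the 3 phosphatase subgroups in red and a black bar at each median. The ERK output genes have a median of 0.59 and the immediate early genes one of -0.49, and no gene drawn passed the test.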

How the data were processed

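Poly(A) RNA libraries of 4 animals were analysed. Cutadapt, Cufflinks, TopHat2 2.1.1 and build mm9 appear in the submitters' processing notes. The annotation and filters of the authors are not stated there. No header states a unit, and the deposited values were read as FPKM from the naming of Cufflinks. Depth is unknown, so no counting interval or floor is given. Library totals were 526652 to 565645. Per the labels' protocols, reads are paired and carry no strand. Groups came from the genotype labels.

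Limma 3.58.1 in R 4.3.3 (lmFit, eBayes with trend, two-sided) compared Usp25-/- with Usp25+/+ on log2(FPKM + 1), a scale that shrinks differences of low genes, with Benjamini-Hochberg adjustment over 12011 genes, a threshold of 0.05 and 2 residual degrees of freedom. The fit was also run on simulated data with independent noise for each gene and library, which held no shift of a whole library. Members and lists were chosen with earlier results of these data known. Named genes were the members, Usp25, the largest tested difference in each direction of each pathway list, and the closest profiles. Markers of cell types and sex were named to check the labels, and no rule set which single markers are named. Etv4, Mapk3, Mapk14 and Mapkapk2 were added after their values were seen. Alternatives were a pseudocount of 0.1, 2 other filters, 3 other scalings, no variance trend, and each library left out in turn.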

Additional observations from a re-analysis of the deposited data

How the results depend on the processing

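No paired analysis was possible because the genotypes share no animal numbers. Under every alternative run, 0 genes and 0 members passed. Of 98 member log2 fold changes under the alternatives, 93 kept their direction and 5 turned, each when a library was left out. Over the fits without single libraries, Dusp2 ranged from -1.86 to 0.043, Dusp5 from -0.91 to 0.38, Dusp8 from -0.38 to 0.095 and Dusp16 from -2.34 to 1.03. The turns were Dusp2, Dusp5 (0.033) and Dusp16 without animal 139, Dusp8 without 140 and Dusp5 without 850. The 9 tested members' median of -0.14 ranged from -0.08 to 0.31 without single libraries, and was 0.05 with a filter of 5 FPKM, which removed Dusp8, and -0.05 with no filter, which added Dusp9. The 4 members without overlap became 5 to 7 without single libraries, where fewer libraries overlap less. With upper quartile scaling they were 0 lower and 4 higher. The share of 33.8% of all tested genes is for the main fit. It was not computed for these other fits, so their counts are not read as results about the members. A fit without a library leaves 1 in a genotype, which is assumed to vary like the other. The smallest adjusted p of a member in any fit was 0.0883, for Dusp2 without animal 140.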

Other observations

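Map3k8, the kinase that links Toll-like receptors to ERK, stood at 19.8 and 21.7 FPKM in Usp25-/- 826 and 850, against 47.4 and 30.8 FPKM in Usp25+/+ 139 and 140. This was a difference of -0.85 on the log2 scale (SE 0.33, limma adjusted p = 0.960). Of 12 MAP kinase kinase kinases 9 were lower and 3 higher in Usp25-/-, with 0 past the test, a median of -0.19 and 4 lower without overlap. Of all tested genes, 46.5% were lower and 14.7% were lower without overlap. The median of the 12 without single libraries ranged from -0.29 to -0.10. Map3k4 had the largest positive difference, at 0.17 (SE 0.32).

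Glucocorticoids are known to induce Dusp1. Of 6 other glucocorticoid targets 5 were lower and 1 higher in Usp25-/-, with 0 past the test and a median of -0.23. Among all tested genes 46.5% were lower. Per1, a circadian clock gene, had 17.9 and 20.7 FPKM in Usp25-/- 826 and 850, against 46.1 and 29.6 FPKM in Usp25+/+ 139 and 140 (log2 fold change -0.90, SE 0.34). Sgk1, a kinase gene, was at 422 and 442 FPKM in 826 and 850, against 298 and 492 FPKM in 139 and 140. Animal 139 was the highest library for 5 of the 6, and without it 3 were lower and 3 higher, with a median of -0.06. Without animal 140 the median was -0.69.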
